A study of Arabidopsis thaliana with 8 samples.

Results

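CRTISO, the carotenoid isomerase gene, and 9 other genes of carotenoid synthesis were followed across Arabidopsis thaliana seedlings that lack SDG8, SDG26 or both. In pathway order the 10 genes are PSY (AT5G17230), PDS (AT4G14210), Z-ISO (AT1G10830), ZDS (AT3G04870), CRTISO (AT1G06820), LYC (AT3G10230), LUT2 (AT5G57030), LUT1 (AT3G53130), BCH1 (AT4G25700) and BCH2 (AT5G52570). They were taken by locus, as enzymes of the pathway, and are 10 of the 20620 genes tested. Transcript levels were read on 8 single-colour Agilent arrays, 2 each for sdg8, sdg26, sdg8 sdg26 (both mutations) and wild type (Col). SDG8 and SDG26 are histone methyltransferases of the SET-domain family, which place methyl groups on histones. All plants were 6 days old, had grown at 22 °C with 16 h of light and 8 h of darkness, and only their aerial part was used. The alleles are not named in the sources used here, nor is it stated whether the 2 arrays of a genotype came from separate cultures. The p-values therefore measure only the spread between these samples.

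Carotenoids are plastid pigments that harvest light and protect the photosynthetic apparatus from excess light. Their synthesis starts with the joining of geranylgeranyl diphosphate into colourless phytoene, which desaturases and isomerases turn into red lycopene. Cyclases then split the route into a lutein branch and a β-carotene branch. The β-branch xanthophylls also feed the synthesis of abscisic acid, and cleavage of β-carotene feeds that of strigolactones. CRTISO acts between the desaturases and the cyclases, where it turns poly-cis lycopene into the all-trans form.

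A level is the log2 signal of a gene's brightest probe above or below the 75th percentile of its array. A difference is the mean of the first genotype minus that of the second on this log2 scale, with its standard error (SE) from 1 limma fit over the 8 arrays (n = 2 per genotype). The words rose and fell are kept for genes whose Benjamini-Hochberg adjusted p in limma, over all 20620 genes, was under 0.05. Every one of the 10 genes was well above background on all 8 arrays, so none of their values is a bound. Sums of RNA from whole shoots cannot tell fewer expressing cells from less RNA per cell.

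Each mutant had little transcript of the gene it is named for. SDG8 (EFS in the gene table) lay at -3.59 and -3.22 in sdg8 and at -2.71 and -2.95 in sdg8 sdg26, against -0.63 and -0.36 in wild type. SDG26 (ASHH1) lay at -5.40 and -5.98 in sdg26 and at -4.00 and -5.00 in sdg8 sdg26, against -1.09 and -1.04 in wild type. Both sdg8 arrays lay on slide 3, the 4 arrays of sdg26 and of sdg8 sdg26 on slide 4, and the wild-type arrays on slides 1 and 2. Genotype and slide therefore cannot be told apart, except between sdg8 sdg26 and sdg26, the comparison that lay within slide 4. The 7 markers of green tissue were well above background on every array. So were 5 of 6 root markers, NRT2.1 being the exception, although the labels name the aerial part. The summed signal of the root markers, as a multiple of the 75th percentile, lay between 11.2 and 14.4 on all arrays. Most of that sum was the signal of PYK10, which read 3.18 to 3.58, so it says little of the other markers. Single root markers moved. IRT1 fell in sdg8 (-1.45 ± 0.18, adjusted p = 0.0128). Of the 5 tested root markers 3 were above 0 and 2 below in sdg8, with a median difference of 0.13. CASP1 rose in sdg8 sdg26 (0.97 ± 0.20, adjusted p = 0.0420), where 5 of 5 tested root markers were above 0 with a median difference of 0.73. The summed signal of the 5 seed markers, on the same scale, reached 6.24 in wild-type replicate 1 and lay between 0.190 and 1.60 on the other 7 arrays.

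CRTISO was low on every array with the sdg8 mutation. Its level was -2.73 and -2.33 in sdg8, against 0.84 and 0.78 in wild type. In sdg8 sdg26 it was -2.92 and -4.35. The sdg26 arrays, at 0.72 and 0.67, lay just below the wild-type arrays. The 4 arrays with the sdg8 mutation thus spanned -4.35 to -2.33 and the 4 arrays without it 0.67 to 0.84, which left a gap of 3.0 log2 units between the sets.

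CRTISO fell 10.1-fold in sdg8, to 9.88% of its wild-type level (log2 difference -3.34 ± 0.42, 95% interval -4.33 to -2.35, adjusted p = 0.0140). It fell 21.8-fold in sdg8 sdg26, to 4.60% of wild type (-4.44 ± 0.42, 95% interval -5.43 to -3.45, adjusted p = 0.00415). Among all 20620 genes, called or not, ordered from the most negative difference, CRTISO stood 24th in sdg8 and 3rd in sdg8 sdg26. By limma's p, in either direction, its ranks were 151 and 83. In sdg26 the difference from wild type was -0.11 ± 0.42 (95% interval -1.10 to 0.88, adjusted p = 0.949). That interval is wide because 1 spread is fitted to all genotypes: the SD of CRTISO was 1.01 in sdg8 sdg26 and 0.28 in sdg8, but 0.04 in both sdg26 and wild type. The comparisons with wild type share the same 2 wild-type arrays.

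The fall was also read in comparisons between mutants, 1 of which lay within a single slide. In sdg8 sdg26 against sdg26, all 4 arrays of which lay on 1 slide, CRTISO fell 20.1-fold (-4.33 ± 0.42, adjusted p = 0.00560), and with only those 4 arrays in the fit its adjusted p was 0.0426. The difference was -3.62 without sdg8 sdg26 replicate 2 and -5.04 without sdg8 sdg26 replicate 1. In sdg8 against sdg26, which lay on different slides, CRTISO fell 9.36-fold (-3.23 ± 0.42, adjusted p = 0.0131). With the mutation averaged over both backgrounds, a summary added after the data were seen, CRTISO fell 14.3-fold with the sdg8 mutation (-3.84 ± 0.29, adjusted p = 0.00115) and differed by -0.61 ± 0.29 with the sdg26 mutation (adjusted p = 0.330). Both averages take in comparisons of genotypes that lay on different slides.

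Whether the loss of SDG26 added to that of SDG8 was not settled by these arrays. CRTISO was lower in both sdg8 sdg26 arrays than in either sdg8 array (log2 difference -1.10 ± 0.42, 95% interval -2.09 to -0.11, unadjusted p = 0.0336 and adjusted p = 0.317 in limma). Most of that gap came from sdg8 sdg26 replicate 2: the difference was -0.39 without it and -1.82 without sdg8 sdg26 replicate 1. The interaction, which asks whether the sdg8 effect differs between the sdg26 and the wild-type background, was -0.99 ± 0.59 (95% interval -2.39 to 0.41, adjusted p = 0.995).

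A second CRTISO probe gave the same picture. It read -3.45 and -3.01 in sdg8, 0.04 and -0.02 in sdg26, -3.64 and -5.20 in sdg8 sdg26, and 0.08 and 0.22 in wild type. When each probe was tested on its own among 28459 probes, the second probe fell by 3.38 ± 0.45 in sdg8 (log2 difference -3.38, adjusted p = 0.0181) and by 4.56 in sdg8 sdg26 (-4.56, adjusted p = 0.00519). In sdg26 its difference from wild type was -0.14 (adjusted p = 0.946). The distance between the probes stayed between 0.57 and 0.85 log2 units on all 8 arrays, including both low sdg8 sdg26 values.

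**Figure D1:**
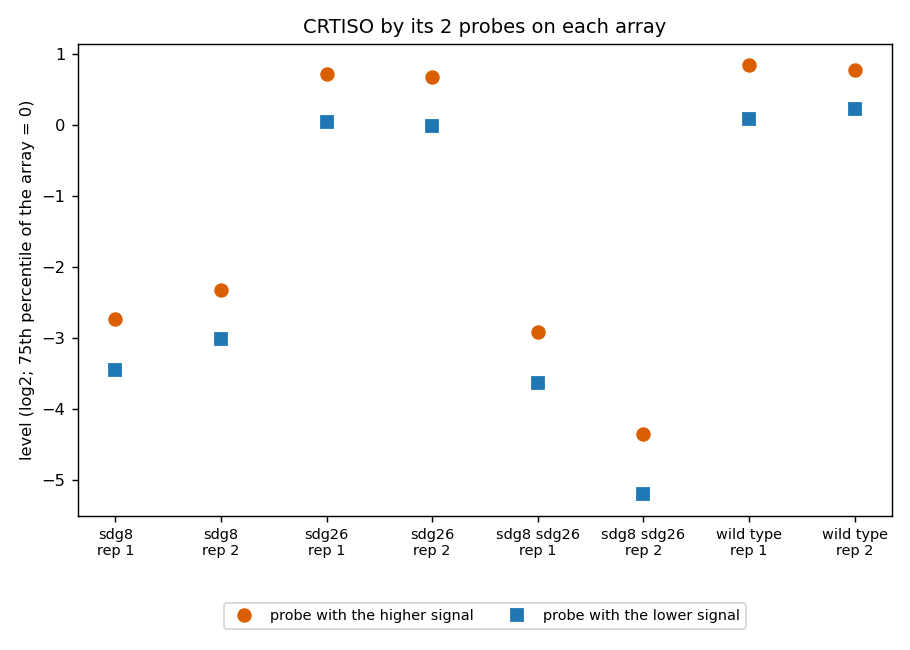
Level of CRTISO (log2, with the 75th percentile of the array at 0) by each of its 2 probes on the 8 arrays, grouped as sdg8, sdg26, sdg8 sdg26 and wild type. Both probes were low on all 4 arrays with the sdg8 mutation, and sdg8 sdg26 replicate 2 was the lowest array by either probe.

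The CRTISO call in sdg8 was lost without any 1 of the 4 arrays of that comparison, with the log2 difference between -3.54 and -3.14. Each such fit left 1 genotype with 1 array, and fewer of all genes passed in it than in the full fit. The call in sdg8 sdg26 was kept whichever of the 8 arrays was left out, with adjusted p from 0.000992 to 0.0319, and its log2 difference was -3.73 without sdg8 sdg26 replicate 2 and -5.16 without replicate 1. Against sdg26, the call in sdg8 sdg26 was lost without sdg26 replicate 1 (adjusted p = 0.0535). With normexp on the local background every CRTISO call was lost, at log2 differences from wild type of -2.95 in sdg8 (adjusted p = 0.948) and -3.88 in sdg8 sdg26 (adjusted p = 0.343). With this setting 0 of all 20620 genes passed in any comparison of 2 genotypes. That local background reached 229880 on sdg26 replicate 2, where its median was 26.

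None of the 4 genes that act before CRTISO passed the test in any comparison. PSY, phytoene synthase and the first committed step, read 2.53 and 2.37 in sdg8, 2.50 and 2.52 in sdg26, 2.52 and 2.59 in sdg8 sdg26, and 2.64 and 2.83 in wild type. All 6 mutant arrays lay below both wild-type arrays. The differences from wild type were -0.29 ± 0.13 in sdg8 plants (adjusted p = 0.328), -0.22 ± 0.13 in sdg26 (0.646) and -0.18 ± 0.13 in sdg8 sdg26 (0.410), none of them past the threshold. A second, dimmer PSY probe differed by -0.41, -0.31 and -0.46 ± 0.14 in sdg8, sdg26 and sdg8 sdg26. It did not pass limma's test among all probes either (adjusted p = 0.228, 0.626 and 0.11).

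PDS, phytoene desaturase, read 1.13 and 1.37 in sdg8, 1.36 and 1.35 in sdg26, 1.38 and 1.29 in sdg8 sdg26, and 1.22 and 1.46 in wild type. Every mutant overlapped wild type for PDS, also by a second, dimmer probe. That probe differed by -0.47, -0.05 and -0.16 ± 0.22 in sdg8, sdg26 and sdg8 sdg26. Z-ISO, the isomerase of 15-cis-ζ-carotene, read 0.73 and 0.98 in sdg8, 0.94 and 0.94 in sdg26, 1.11 and 0.98 in sdg8 sdg26, and 0.87 and 0.98 in wild type. By this probe it overlapped likewise. By a second Z-ISO probe sdg8 and sdg26 overlapped wild type, but sdg8 sdg26 read 0.86 and 0.86 against 0.62 and 0.71. That difference was 0.19 ± 0.12 (adjusted p = 0.361 in limma among all probes). ZDS, ζ-carotene desaturase and the step just before CRTISO, read 1.98 and 1.96 in sdg8, 2.02 and 1.86 in sdg26, 1.98 and 2.01 in sdg8 sdg26, and 2.12 and 2.2 in wild type. ZDS was below both wild-type arrays on all 6 mutant arrays, with differences of -0.19 ± 0.12, -0.22 ± 0.12 and -0.16 ± 0.12 in sdg8, sdg26 and sdg8 sdg26 (adjusted p = 0.467, 0.627 and 0.423).

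Neither cyclase gene that follows CRTISO passed the test. LYC, lycopene β-cyclase, read 1.70 and 1.64 in sdg8, 1.75 and 1.67 in sdg26, 1.78 and 1.69 in sdg8 sdg26, and 1.92 and 1.73 in wild type. LYC had the narrowest range of the 10 genes, 0.28 log2 units over the 8 arrays. LUT2, lycopene ε-cyclase at the entry to the lutein branch, read 1.91 and 2.18 in sdg8, 1.98 and 2.07 in sdg26, 1.91 and 2.05 in sdg8 sdg26, and 1.83 and 2.09 in wild type. Each LUT2 difference from wild type was above 0 and at most 0.09 ± 0.15 in size (adjusted p = 0.825 in sdg8).

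BCH2 was the only other of the 10 genes to pass the test in any comparison. BCH1 and BCH2 are β-carotene hydroxylases, which add the hydroxyl groups that make zeaxanthin. BCH2 read 2.29 and 2.24 in sdg8 sdg26, against 2.83 and 2.85 in wild type. It fell 1.49-fold there (log2 difference -0.58 ± 0.11, 95% interval -0.84 to -0.32, adjusted p = 0.0313). The single mutants lay in between, at 2.52 and 2.46 in sdg8 and at 2.52 and 2.56 in sdg26, with differences from wild type of -0.35 ± 0.11 (adjusted p = 0.174) and -0.30 ± 0.11 (adjusted p = 0.516). The BCH2 difference between sdg8 sdg26 and sdg26, on 1 slide, was -0.28 ± 0.11 (adjusted p = 0.304). The call was lost without any 1 of the 8 arrays (adjusted p from 0.0614 to 0.117, log2 difference -0.60 to -0.56), with quantile normalization (-0.46, adjusted p = 0.0588) and with only the 4 arrays compared in the fit (adjusted p = 0.128).

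BCH1 read 2.83 and 2.62 in sdg8, 2.84 and 2.58 in sdg26, 2.81 and 2.84 in sdg8 sdg26, and 3.03 and 2.88 in wild type. By this brightest probe all mutant arrays lay below the wild-type arrays, by means of 0.13 to 0.25 log2 units (differences -0.23, -0.25 and -0.13 in sdg8, sdg26 and sdg8 sdg26), and none passed the test (adjusted p = 0.476, 0.648 and 0.597). Of its other 2 probes, 1 gave differences of -0.01 ± 0.25, -0.03 ± 0.25 and 0.21 ± 0.25 in sdg8, sdg26 and sdg8 sdg26, and the other -0.28, -0.39 and -0.39 ± 0.22. By the first of these every mutant overlapped wild type, and by the second sdg8 and sdg26 did.

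LUT1, the cytochrome P450 that hydroxylates the ε-ring of lutein, missed the threshold narrowly in sdg8 sdg26. It read 0.21 and -0.01 there, against 0.77 and 0.81 in wild type, a difference of -0.69 ± 0.15 (95% interval -1.05 to -0.32, unadjusted p = 0.00324, adjusted p = 0.0506 in limma). In sdg8 it read 0.62 and 0.61, and in sdg26 0.75 and 0.40, so both sdg8 sdg26 arrays were below every other array. A second, dimmer LUT1 probe did not follow: it read -3.42 and -3.59 in sdg8 sdg26 and -3.34 and -3.86 in wild type, a difference of 0.09 ± 0.24. LUT1 passed the test with background correction on each array's median background (-0.96, adjusted p = 0.0197) and when only probes well above background on all 8 arrays were tested (adjusted p = 0.0394).

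**Figure D2:**
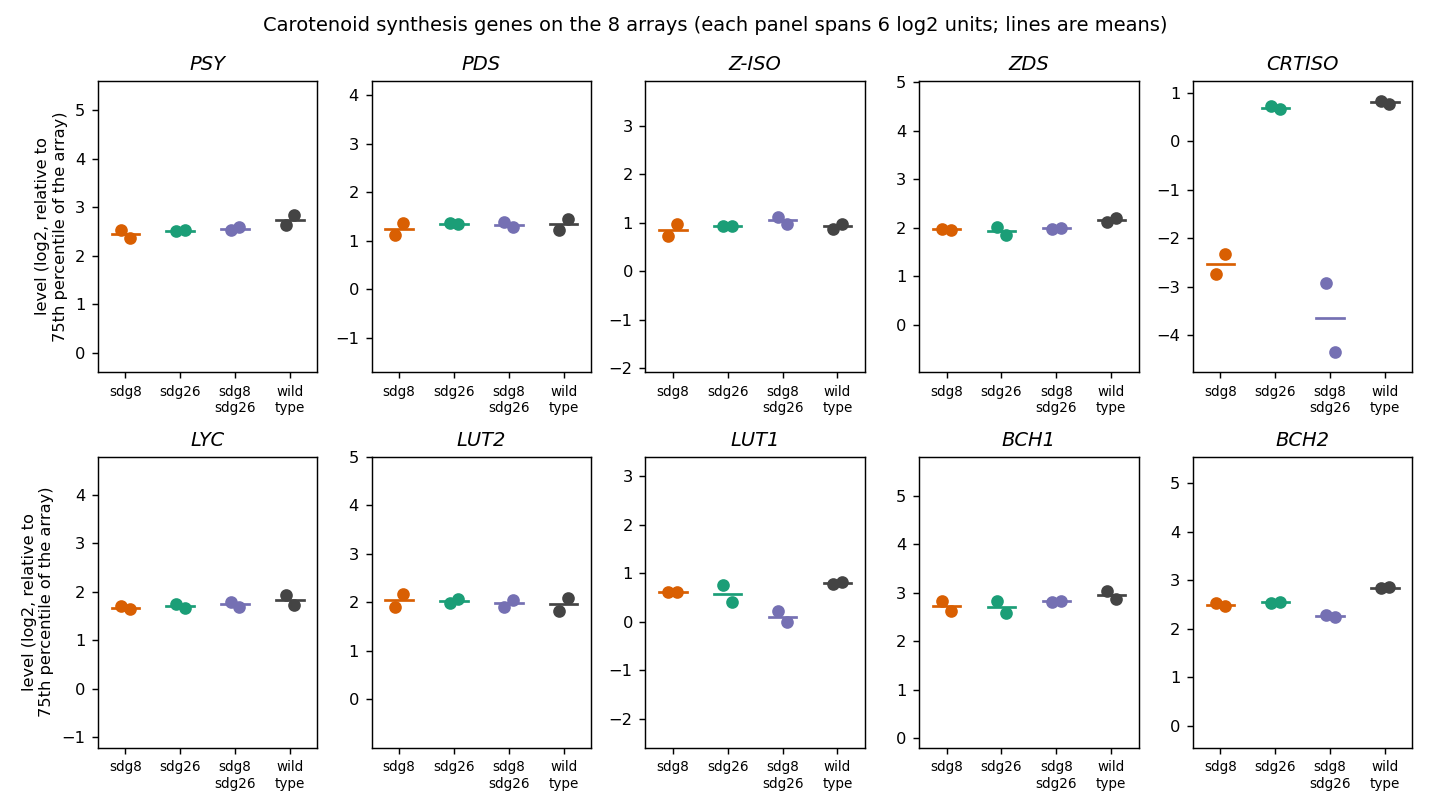
Level of each of the 10 genes (log2, with the 75th percentile of the array at 0) on the 8 arrays, with each panel spanning 6 log2 units, points for arrays and lines for the mean of each genotype. CRTISO ranged over 5.18 log2 units, whereas the other 9 genes ranged over 0.28 (LYC) to 0.82 (LUT1).

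Counted over the 10 genes, the sdg8 call was CRTISO alone: 1 of 10 fell and 0 rose, where 1.87% of all genes tested fell and 0.810% rose. In sdg8 sdg26 2 of 10 fell (CRTISO and BCH2) and 0 rose, where 3.19% of all genes fell and 3.06% rose. In sdg26 0 of 10 passed limma's test, where 0.00970% of all genes did. At an unadjusted p under 0.05 the count in sdg26 was 1 of 10 (BCH2), against 8.96% of all genes.

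Between mutants, 1 of 10 fell in sdg8 sdg26 against sdg26 (CRTISO, where 1.49% of all genes fell) and 1 of 10 in sdg8 against sdg26 (CRTISO, where 2.56% of all genes fell). In sdg8 sdg26 against sdg8 0 of 10 passed limma's test, where 0.281% of all genes did, and 2 of 10 (CRTISO and LUT1) had an unadjusted p under 0.05, against 13.8% of all genes. For the interaction 0 of 10 passed, where 0.00485% of all genes did, and 0 of 10 had an unadjusted p under 0.05, against 4.49% of all genes.

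In sdg8 and sdg8 sdg26 the intervals of the other 9 genes did not reach that of CRTISO. In sdg26 the CRTISO interval, -1.10 to 0.88, spanned all of theirs. In sdg8 the 95% intervals of the other 9 genes lay between -0.61 and 0.46, in sdg26 between -0.59 and 0.44, and in sdg8 sdg26 between -1.05 and 0.44. The CRTISO intervals in sdg8 and sdg8 sdg26 lay wholly below these. In sdg8 sdg26 against sdg26 the other 9 intervals lay between -0.84 and 0.46.

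**Figure D3:**
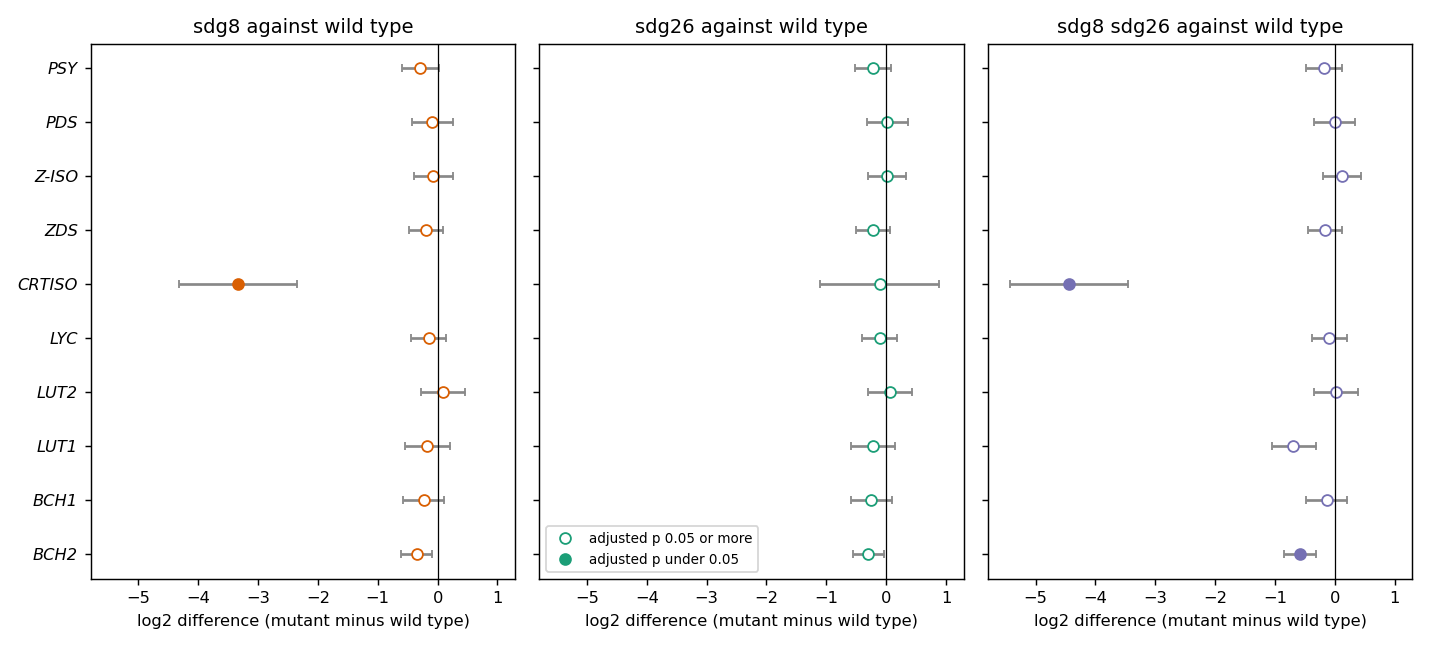
Log2 difference of each of the 10 genes (mutant minus wild type, with its 95% interval) in sdg8, sdg26 and sdg8 sdg26, with filled points where the adjusted p was under 0.05. CRTISO stood at -3.34 in sdg8 and -4.44 in sdg8 sdg26, BCH2 at -0.58 in sdg8 sdg26, and every other point lay between -0.69 and 0.12.

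Wild type had the highest mean for 7 of the 10 genes: PSY, ZDS, CRTISO, LYC, LUT1, BCH1 and BCH2. The highest mean was in sdg8 for LUT2, in sdg26 for PDS and in sdg8 sdg26 for Z-ISO. Both arrays lay below both wild-type arrays for 7 of 10 genes in sdg8 (25.9% of all genes did so), for 6 of 10 in sdg26 (18.3%) and for 6 of 10 in sdg8 sdg26 (25.4%). These counts rest on the brightest probe of each gene, BCH1 and LUT1 among them. The second probes of PSY and CRTISO also read lower on every mutant array than on both wild-type arrays. By the second, dimmer LUT1 probe, however, every mutant overlapped wild type. That LUT1 probe gave positive differences from wild type: 0.42 ± 0.24 (sdg8), 0.29 ± 0.24 (sdg26) and 0.09 ± 0.24 (both mutations). The median difference of the 10 genes was -0.18 in sdg8 plants, -0.16 in sdg26 and -0.15 in sdg8 sdg26, where that of all genes was -0.01, 0.02 and 0.03.

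The green tissue markers lay below wild type in the same comparisons. Their median differences were -0.25 in sdg8 plants, -0.21 in sdg26 and -0.15 in sdg8 sdg26, with 6, 7 and 7 of 7 below 0. In each mutant 0 of 7 were past the threshold, where 2.68%, 0.00970% and 6.26% of all genes were. Their summed signal, as a multiple of the 75th percentile, was 188 and 197 in sdg8, 167 and 218 in sdg26, 214 and 136 in sdg8 sdg26, and 196 and 263 in wild type. CAB3 had no value on sdg8 sdg26 replicate 2, so the sum of 136 leaves it out and cannot be set against the others. On sdg8 sdg26 replicate 1 CAB3 read 5.39. Within slide 4, where sdg8 sdg26 was set against sdg26, the median of the 10 genes was 0 and that of the green markers 0.03. The part of slide, green tissue content, root-marker level or seed-marker level in these small differences was not tested. The CRTISO difference within slide 4 was -4.33.

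Around CRTISO on the chromosome, 1 measured neighbour also fell. In the order of the TAIR10.1 gene table, AT1G06810 comes before CRTISO and AT1G06830 and AT1G06840 after it. AT1G06830 read 0.55 and 0.31 in sdg8, 0.93 and 0.95 in sdg26, 0.38 and 0.33 in sdg8 sdg26, and 1.31 and 1.37 in wild type. It was lowest on the 4 arrays with the sdg8 mutation, and the sdg26 arrays lay between those and wild type.

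AT1G06830 fell 1.88-fold in sdg8 (-0.91 ± 0.13, adjusted p = 0.0193) and 1.98-fold in sdg8 sdg26 (-0.98 ± 0.13, adjusted p = 0.00999). In sdg26 its difference was -0.41 ± 0.13 (adjusted p = 0.467), and in sdg8 sdg26 against sdg26, within slide 4, -0.58 ± 0.13 (adjusted p = 0.0809). The sdg8 call of AT1G06830 was lost without sdg8 replicate 1 (adjusted p = 0.0571) or 2 (0.0999) and without wild-type replicate 1 (0.0700) or 2 (0.0946), and the sdg8 sdg26 call was kept whichever array was left out.

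Neither other neighbour passed the test. AT1G06810 differed from wild type by -0.14 ± 0.18 in sdg8 plants, 0.39 ± 0.18 in sdg26 and -0.16 ± 0.18 in sdg8 sdg26 (adjusted p = 0.744, 0.587 and 0.610). AT1G06840 differed by -0.27 ± 0.17, 0.27 ± 0.17 and -0.50 ± 0.17 in sdg8, sdg26 and sdg8 sdg26 (adjusted p = 0.500, 0.676 and 0.140), in a fit that dropped wild-type replicate 1, where its value was missing. It read -3.03 to -2.71 on the 4 arrays with the sdg8 mutation and -2.50 to -2.11 on the 3 measured arrays without it. In sdg8 sdg26 against sdg26, within slide 4, AT1G06810 differed by -0.55 ± 0.18 (adjusted p = 0.213) and AT1G06840 by -0.77 ± 0.14 (adjusted p = 0.0621). The second annotated locus before CRTISO, AT1G04513, has no probe. The one before it, AT1G06800, was therefore looked at after the values of its neighbours were seen, and differed by 0.07, -0.05 and 0.17 in sdg8, sdg26 and sdg8 sdg26.

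**Figure D4:**
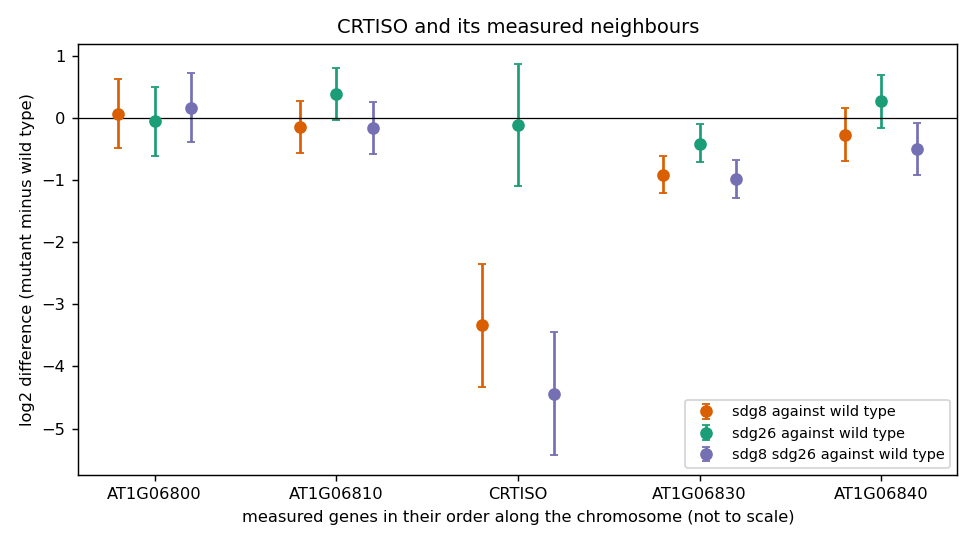
Log2 difference from wild type, with its 95% interval, of CRTISO and its measured neighbours in chromosome order (spacing not to scale) in sdg8, sdg26 and sdg8 sdg26. CRTISO was the lowest of them in sdg8 and sdg8 sdg26 but not in sdg26, AT1G06830 lay at -0.91 in sdg8 and -0.98 in sdg8 sdg26, and the intervals of AT1G06800 and AT1G06810 included 0 in each mutant.

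Of the other 9 genes, BCH2 and LUT1 followed CRTISO most closely over the arrays, but over ranges of 0.61 and 0.82 log2 units where that of CRTISO was 5.18. As a description over the 8 arrays, which share genotypes and slides, Pearson's r with CRTISO was 0.822 for BCH2 and 0.735 for LUT1 and lay between -0.125 (Z-ISO) and 0.399 (LYC) for the other 7 genes. Of 20496 genes with all 8 values, the 5 closest to CRTISO by root mean square difference of their centred levels were AT1G62085 (0.226 log2 units), AT5G56370 (0.402), AT5G05040 (0.467), AT5G05060 (0.530) and MAF1 (0.541). MAF1 (AT1G77080, also FLM) is a MADS-box repressor of flowering. Since these were picked for their likeness to CRTISO, their own falls are a description.

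MAF1 read -2.77 and -2.79 in sdg8, 0.36 and 0.52 in sdg26 and -2.51 and -3.07 in sdg8 sdg26, with a wild-type mean of 0.51. AT5G05040 and AT5G05060 had means of -2.65 and -1.87 in sdg8, 0.53 and 1.35 in sdg26, -2.94 and -1.97 in sdg8 sdg26, and 0.63 and 1.32 in wild type. All 3 were high on the arrays without the sdg8 mutation and low on those with it. AT1G62085 did not reach the threshold for well above background on the sdg8 arrays, which made it at least 13.9-fold lower in sdg8 than in wild type, and was measured on 1 of 2 sdg8 sdg26 arrays. AT5G56370 was not well above background in sdg8 or sdg8 sdg26, and was at least 6.68-fold lower in sdg8 and at least 11.2-fold lower in sdg8 sdg26 than in wild type. Such a bound sets the mean of the bright genotype against the lowest signal well above background on each dim array, or the dim probe's own signal where that is higher.

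The rest of the pathway was read through 5 lists of genes. In sdg8 and in sdg26, 0 genes of any of the 5 lists passed limma's test against wild type, where 2.68% and 0.00970% of all genes did in either direction. The counts at an unadjusted p under 0.05 were 5 of 42 tested genes in sdg8 and 3 of 42 in sdg26, against 16.7% and 8.96% of all genes. In sdg8 sdg26 1 of 42 passed, VTE1, where 6.26% of all genes did, and 10 of 42 had an unadjusted p under 0.05, against 26.1% of all genes.

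Of the plastid precursor supply, the methylerythritol phosphate pathway and the prenyl transferases that deliver geranylgeranyl diphosphate, 0 of 11 genes passed in any mutant against wild type, with medians of -0.05, -0.05 and -0.13 in sdg8, sdg26 and sdg8 sdg26. The 2 with the smallest p in sdg8 were MDS, a cyclodiphosphate synthase of that pathway, at -0.32 ± 0.11 (adjusted p = 0.225), and IDI2, an isopentenyl diphosphate isomerase, at -0.20 ± 0.11 (adjusted p = 0.428). In sdg8 sdg26 MDS and IDI2 differed by -0.19 ± 0.11 and -0.31 ± 0.11 (adjusted p = 0.333 and 0.143).

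Of the 4 genes of later xanthophyll steps, 0 passed, with medians of -0.20 in sdg8 plants, -0.17 in sdg26 and -0.34 in sdg8 sdg26. LUT5, a β-ring hydroxylase of the P450 type, differed by -0.24 ± 0.11 in sdg8 (adjusted p = 0.329) and 0.06 ± 0.11 in sdg8 sdg26 (0.746). ABA4, which is needed for neoxanthin, read 0.42 and 0.32 in sdg8 sdg26, against 1.19 and 0.88 in wild type. Its groups did not overlap there, and its difference of -0.66 ± 0.15 missed the threshold (adjusted p = 0.0536). VDE, violaxanthin de-epoxidase, named after its value was seen, missed it as narrowly there (-0.58 ± 0.13, adjusted p = 0.0526). In sdg8 ABA4 differed by -0.28 ± 0.15 (adjusted p = 0.417).

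Carotenoid cleavage and abscisic acid synthesis had the widest range of differences from wild type of the 5 lists in each mutant. Of its 13 genes 9 were tested, CCD7, NCED2, NCED6 and NCED9 being too dim. The median difference was 0.17 in sdg8 plants, -0.14 in sdg26 and -0.21 in sdg8 sdg26, and 0 of 9 passed in each. In sdg8 5 genes lay above 0 and 4 below, from -0.56 to 0.96. In sdg8 sdg26 2 lay above 0 and 7 below, from -0.56 to 0.7. D27, the β-carotene isomerase at the start of strigolactone synthesis, read -0.28 and -0.22 in sdg8, 0.25 and 0.10 in sdg26, -0.17 and -0.08 in sdg8 sdg26, and 0.27 and 0.35 in wild type.

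D27 was lower on all 4 arrays with the sdg8 mutation than on the 4 without it. Its differences from wild type were -0.56 ± 0.12 in sdg8 (adjusted p = 0.0663) and -0.43 ± 0.12 in sdg8 sdg26 (0.0802), and it passed only with the sdg8 mutation averaged over backgrounds (-0.43 ± 0.08, adjusted p = 0.0299, where 4.86% of all genes fell). AAO3, the abscisic aldehyde oxidase of the last step to abscisic acid, differed by -0.33 ± 0.13 in sdg8 and -0.56 ± 0.13 in sdg8 sdg26 (adjusted p = 0.283 and 0.0586).

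Among cofactors and regulators, 0 of 11 genes passed, with medians of 0.08, 0 and -0.10 in sdg8, sdg26 and sdg8 sdg26. PTOX, the plastid terminal oxidase that takes up electrons from the desaturases, differed by 0.20 ± 0.11 in sdg8 and 0.13 ± 0.11 in sdg8 sdg26 (adjusted p = 0.440 and 0.512). CLPC1, a chaperone of the plastid Clp protease, differed by -0.28 ± 0.15 in sdg8 and -0.43 ± 0.15 in sdg8 sdg26 (adjusted p = 0.405 and 0.130).

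Of the 7 genes listed for the routes from geranylgeranyl diphosphate to chlorophyll, tocopherol or gibberellin, VTE1 fell in sdg8 sdg26. VTE1, tocopherol cyclase, read 2.24 and 2.37 in sdg8, 2.24 and 2.41 in sdg26, 2.12 and 2.16 in sdg8 sdg26, and 2.71 and 2.83 in wild type. All 6 mutant arrays lay below wild type. The fall in sdg8 sdg26 was 1.55-fold (-0.63 ± 0.13, adjusted p = 0.0374), and it was lost without any 1 array (adjusted p from 0.0621 to 0.117). In sdg8 and sdg26 VTE1 differed by -0.46 ± 0.13 and -0.45 ± 0.13 (adjusted p = 0.127 and 0.446). VTE2, the prenyl transferase of the same route, differed by -0.35 ± 0.13 in sdg8 and -0.20 ± 0.13 in sdg8 sdg26 (adjusted p = 0.233 and 0.355).

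**Figure D5:**
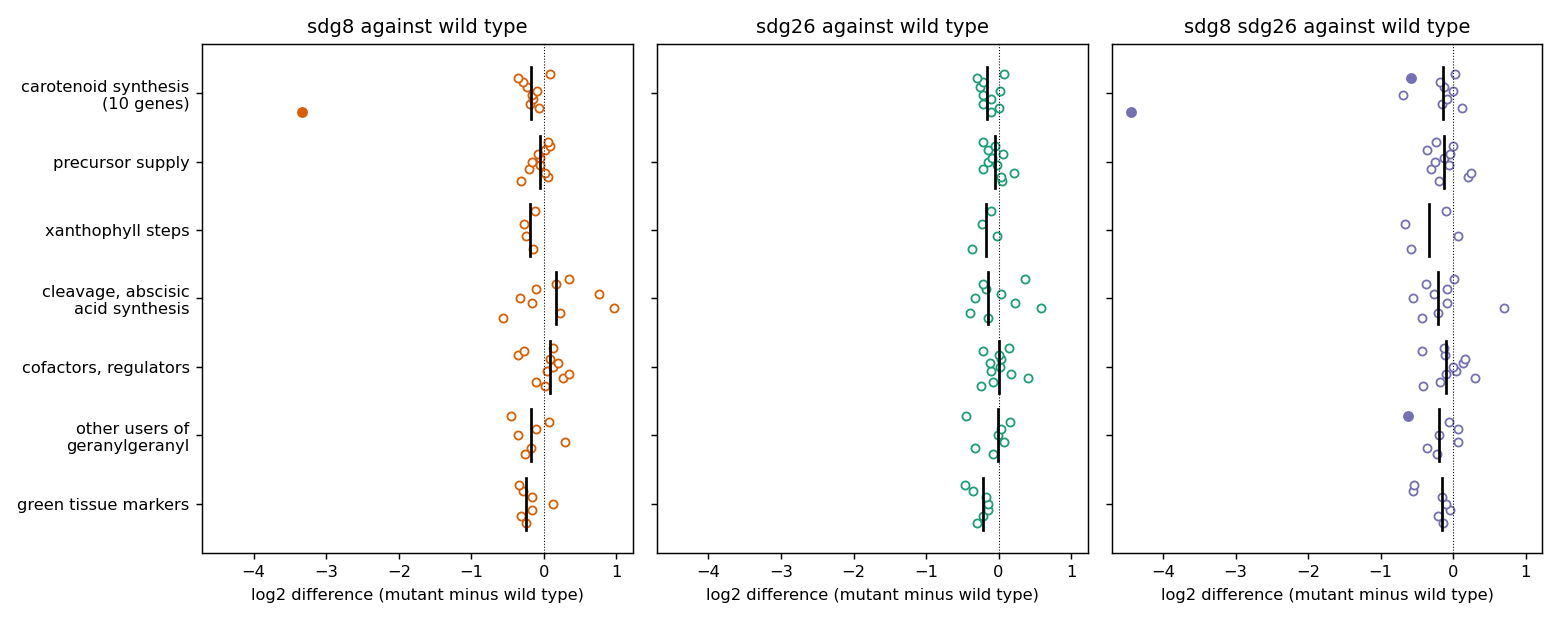
Log2 difference from wild type (mutant minus wild type) of every tested gene of each list in sdg8, sdg26 and sdg8 sdg26, with points for genes, filled where the adjusted p was under 0.05, and black lines for list medians. CRTISO stands alone at the left in sdg8 and sdg8 sdg26, and the filled points near 0 in sdg8 sdg26 are BCH2 and VTE1.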

How the data were processed

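The spot intensity values deposited by the authors came from Agilent Feature Extraction. The file headers give its version as 11.5.1.1 and the submitters' processing notes as 9.1. The processed intensity is background-subtracted per the file headers. A table of the authors' own log2 values, also deposited, served as an alternative: its columns differed from those computed here by nearly 1 constant per array (medians -0.0103 to -0.00674).

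Here log2 of the processed intensity minus the 75th percentile of each array's non-control spots was used. Of 43603 probes, 34116 were kept because both arrays of 1 or more genotypes read them well above background. Probes were named through RefSeq accessions matched to the TAIR10.1 gene table (34285 probes with a locus). The brightest kept probe by mean signal stood for a gene, and 20620 genes could be tested. Levels of different genes come from different probes and are not set against each other. Differences were tested two-sided with limma 3.58.1 in R 4.3.3 (lmFit, eBayes, genotype as the factor, 4 residual and 2.81 prior degrees of freedom), with Benjamini-Hochberg adjustment within each comparison. The median SE of a difference was 0.167. The steps were tested on simulated data. Precision is limited by the number of arrays.

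The members, lists and tests were chosen with earlier results of these data known. Named were the 10 members, SDG8 and SDG26, pathway genes past the threshold and the 2 per list with the smallest p in sdg8 against wild type, 2 neighbours of CRTISO on each side, and the 5 genes with the most similar profile. The alternatives changed normalization, background, filter, probe, samples, slide, replicate block and each array. The mean signal was meant for the normexp alternatives, but the median signal was used, since the files hold that one.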

Additional observations from a re-analysis of the deposited data

How the results depend on the processing

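With normexp on the local background, 0 of the 10 genes passed the test in any comparison, against 1 in sdg8, 2 in sdg8 sdg26 (both against wild type), 1 in sdg8 sdg26 against sdg26 and 1 in sdg8 against sdg26 as reported. With that setting 0 of all 20620 genes passed in those comparisons either. The count in sdg8 sdg26 against wild type became 1 with quantile normalization, without the filter on dim probes, with a fit of only the 4 arrays compared and with the replicate block, each time through the loss of BCH2 (adjusted p = 0.0588, 0.0559, 0.128 and 0.0607). Over all genes 1246 of 20620, 727 of 25381, 497 of 20622 and 900 of 20620 passed with these settings, against 1290 of 20620 as reported. The count of members became 3 with normexp on the median background and with only probes well above background on all 8 arrays, where LUT1 passed too. Over all genes 2172 of 20620 and 1327 of 18668 passed with these 2 settings. The cause was not tested. Leaving out each array in turn gave 0 to 1 in sdg8 against wild type, 1 in sdg8 sdg26 against wild type, 0 to 1 in sdg8 sdg26 against sdg26, and 0 to 1 in sdg8 against sdg26. The last was lost without sdg8 replicate 1 (0.0797) or 2 (0.0606) and without sdg26 replicate 1 (0.0850) or 2 (0.0889). The counts in sdg26 against wild type, in sdg8 sdg26 against sdg8 and for the interaction were 0 under every setting run. A genotype with 1 array left was assumed to vary like the others. In the comparisons with a call among the 10 genes, fewer of all genes passed in each of these fits.

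Replicate numbers did not pair the arrays alike in all genotypes. The correlation of same-numbered deviations from the genotype means was 0.145 to 0.388 among wild type, sdg8 and sdg26. Between each of these and sdg8 sdg26 it was -0.402 to -0.157. The replicate block is therefore reported here alone, with its count of 1 in sdg8 sdg26 against wild type. Of the values of the 10 genes under the alternatives, 0 of 94 belonging to called differences changed sign and 74 of 1198 belonging to uncalled ones did. Of those uncalled values the largest was the LUT1 difference of -0.69 in sdg8 sdg26 against wild type, which was 0.09 by its other probe. Slide as a random block had a correlation of 0.0511, which cannot measure slide differences that coincide with genotype. The fit with only the arrays compared was not run for the interaction, which needs all 4 genotypes. With 2 arrays per genotype, differences near the median SE of 0.167 could not be called.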
